A study of Mus musculus with 2 samples.

Results

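The S100 genes encode small calcium-binding proteins, and 8 of them, S100a1, S100a4, S100a6, S100a8, S100a9, S100a10, S100a11 and S100a13, were followed across the cell types of mouse liver macrophage preparations. The members were taken by symbol from the 26078 gene rows of the count tables, and each of the 8 had its own row. Levels were compared between cell types set by marker genes, none of which is an S100 gene. The tables hold 17 S100 genes in all, and the other 9 are given only as a summary.

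S100 proteins bind calcium through paired EF-hand motifs and mostly act as dimers. S100A8 and S100A9 join into calprotectin, which is abundant in the cytosol of neutrophils, sequesters zinc and manganese, and is sensed by Toll-like receptor 4 when released. S100A4, S100A6, S100A10 and S100A11 bind annexins, myosin or ubiquitin ligase adaptors and are widespread in blood leukocytes, whereas resident macrophages of the liver, the Kupffer cells, are known for receptors of clearance and iron recycling rather than for S100 proteins.

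The Ter119 library came from 1 C57BL/6J mouse given 35 ug of the Ter119 antibody, which binds red cells, under the skin and then 10 daily doses of 10 ug. The saline library came from 1 C57BL/6J mouse given a similar volume of saline, and by the labels both mice were 7 to 10 weeks old. The livers were collected at 24, with no unit in the labels, following the final dose. Cells were enriched with beads carrying antibodies to F4/80 and to CD11b, an integrin that neutrophils and monocytes also carry. Cells of both mice were tagged with hashtag antibodies, pooled and counted by unique molecular identifiers (UMIs) with 10x 3′ chemistry. With 1 mouse in each group no test between treatments is possible, and no p-value is given. Differences are described as ratios with exact 95% intervals that cover counting error only, not differences between mice.

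The Ter119 library held 25760 barcodes and 61892074 UMIs, and the saline library held 18354 barcodes and 97181787 UMIs. After filtering, 13846 Ter119 cells with a median of 2803 UMIs and 11572 saline cells with a median of 6239 UMIs were kept. Of these, 50.6% of Ter119 cells and 81.5% of saline cells passed the Kupffer gate, which was set by 11 Kupffer markers. All 11 were detected there, but also in the summed monocyte, neutrophil, endothelial and T or NK gates of both libraries. Their detection therefore does not set the Kupffer gate apart. The neutrophil gate took 602 Ter119 and 249 saline cells, the monocyte gate 746 and 331, the endothelial gate 1192 and 674, the T or NK gate 135 and 26, the B gate 53 and 71, and the dendritic gate 56 and 54. Hemoglobin transcripts made up 6.61% of the UMIs of Kupffer-gated Ter119 cells and 0.0154% in saline. They were not confined to that gate. In Ter119 they made up 5.00% in neutrophil, 3.93% in monocyte, 4.07% in endothelial, 6.89% in T or NK, 6.39% in B and 3.39% in dendritic cells. In saline they made up at most 0.00320% in those gates. The 2 libraries shared 133 barcode sequences, and the results without them are given with the alternatives.

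All 8 members lie on chromosome 3 in GENCODE annotation of GRCm38, as do 14 of the 17 S100 genes. S100a1 spans chr3:90511034-90514392 on the minus strand and S100a13 chr3:90514435-90524581 on the plus strand, so that both start from the same short gap. S100a4 (chr3:90603771-90606045), S100a6 (chr3:90612882-90624181) and S100a8 (chr3:90668978-90670035) follow on the plus strand, and S100a9 (chr3:90692632-90695721) is on the minus strand. S100a11 (chr3:93520488-93526287) and S100a10 (chr3:93555080-93564643) lie together farther along the chromosome, both on the plus strand.

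Sequences upstream of 4 members and the gap between S100a1 and S100a13 are shown because these genes differed widely between cell types or share a start region. They come from RefSeq's promoter table for GRCm38.p6, which matched 7 of the 8 members, with S100a10 unmatched. Each is read 5′ to 3′ on the strand named, and the longer stretches stop before the first annotated exon base. Capitals mark matches, on either strand, to the TATA box TATAAA, the C/EBP motif TTGCNNAA, the ETS core GAGGAA and the AP-1 motif TGANTCA. For S100a8 the TATA box falls inside the longer first exon of the GENCODE model, so a site of 30 bases around it is shown on a line of its own. In that site the TATA box directly follows an ETS match on the opposite strand.
S100a8, chr3:90668821-90668977, plus strand: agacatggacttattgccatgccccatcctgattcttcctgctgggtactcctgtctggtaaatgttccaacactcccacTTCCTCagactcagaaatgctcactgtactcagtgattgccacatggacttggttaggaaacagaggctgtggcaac
S100a8, chr3:90669029-90669058, plus strand: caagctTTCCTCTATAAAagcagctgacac
S100a9, chr3:90695722-90695971, minus strand: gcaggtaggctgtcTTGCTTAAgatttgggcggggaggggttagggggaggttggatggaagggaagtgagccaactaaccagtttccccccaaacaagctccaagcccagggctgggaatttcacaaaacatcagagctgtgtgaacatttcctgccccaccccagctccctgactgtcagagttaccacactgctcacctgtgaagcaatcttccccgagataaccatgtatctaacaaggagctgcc
S100a4, chr3:90603520-90603769, plus strand: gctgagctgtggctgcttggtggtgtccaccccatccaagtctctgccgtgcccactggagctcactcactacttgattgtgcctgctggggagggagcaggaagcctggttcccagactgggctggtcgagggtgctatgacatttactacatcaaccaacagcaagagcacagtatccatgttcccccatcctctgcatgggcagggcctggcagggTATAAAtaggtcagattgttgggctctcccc
S100a11, chr3:93520246-93520487, plus strand: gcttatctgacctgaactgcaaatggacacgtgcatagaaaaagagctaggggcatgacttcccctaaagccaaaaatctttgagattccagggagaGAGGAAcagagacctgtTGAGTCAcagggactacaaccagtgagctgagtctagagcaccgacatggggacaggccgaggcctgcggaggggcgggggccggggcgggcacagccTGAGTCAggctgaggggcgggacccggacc
S100a1 and S100a13, chr3:90514393-90514434, plus strand: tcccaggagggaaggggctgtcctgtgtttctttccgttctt

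Over the 250 bases before the RefSeq start, the TATA box letters occurred in 2 of the 7 members, S100a8 with its first base 30 bases before the start and S100a4 with its first base 31 bases before it, and in 12.4% of all 32817 promoter windows. The C/EBP letters occurred in 1 member, S100a9, and in 9.57% of windows. The ETS letters occurred in S100a8 and S100a11 and in 23.3% of windows. The AP-1 letters occurred in S100a11 alone among the members, at 2 places, and in 6.75% of windows. These matches describe the letters only. S100a8 and S100a9, whose levels ran together over the cell types below, shared none of the 4 motifs in these windows.

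S100a8 and S100a9 were by far the most abundant members in neutrophil-gated cells and belonged mainly to them. S100a8 reached 119680 CPM (UMIs of the gene per 1000000 UMIs summed over the gated cells) in Ter119 neutrophils, with an interval of 119120 to 120242, against 59558 CPM in saline neutrophils, with an interval of 58924 to 60197. S100a9 stood at 109513 CPM in Ter119 neutrophils and 56409 CPM in saline neutrophils. Together the pair took 22.9% of all neutrophil UMIs in Ter119 and 11.6% in saline. Of all S100a8 UMIs in kept cells, 79.9% in Ter119 and 77.3% in saline lay in the neutrophil gate, and another 14.5% and 11.6% lay in cells that passed more than 1 gate.

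**Figure D1:**
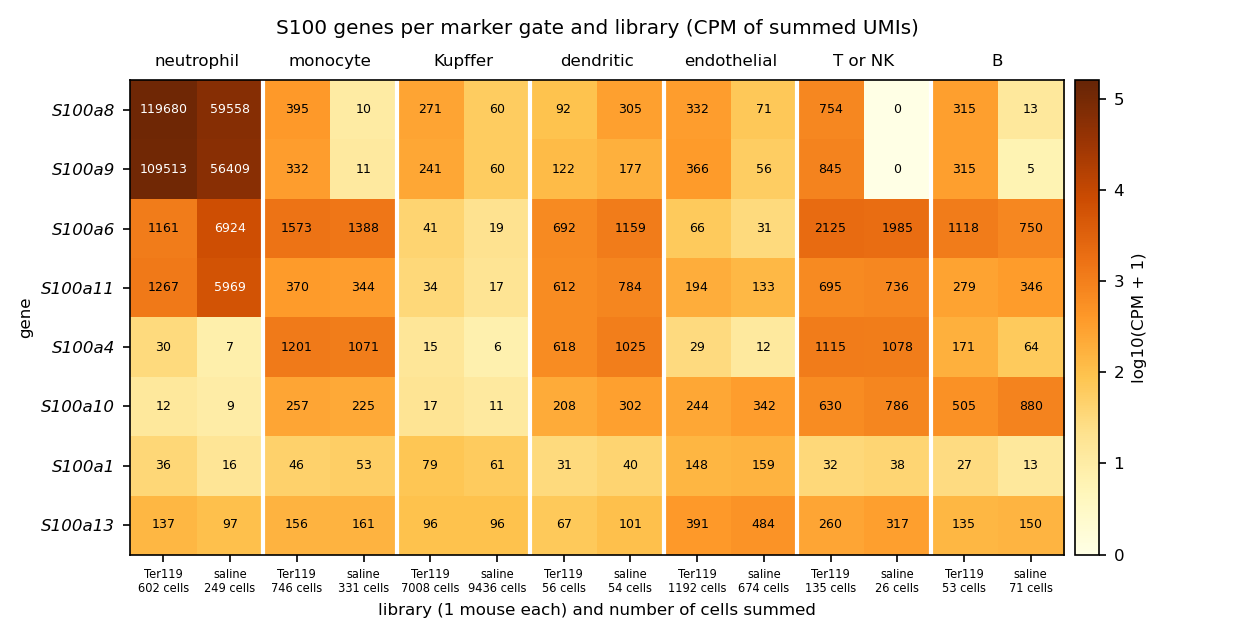
Levels of the 8 S100 genes (rows) in 7 marker gates, with the Ter119 library left of the saline library in each pair of columns. Numbers are CPM of the summed UMIs and colour is log10(CPM + 1). S100a8 reaches 119680 and 59558 CPM in the neutrophil columns and at most 754 CPM in the others, while S100a4 has 1201 and 1071 CPM in monocyte columns and 30.1 and 7.06 CPM in neutrophil columns.

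Within each library the neutrophil gate stood apart from the Kupffer gate for the same members. S100a8 was 442-fold higher in neutrophil-gated than Kupffer-gated cells of the Ter119 library (interval 432 to 453) and 988-fold higher in saline (957 to 1020). S100a6, a calcyclin that binds annexins and the ubiquitin ligase adaptor Cacybp, was 28.3-fold higher in neutrophil-gated than Kupffer-gated Ter119 cells and 362-fold higher in saline. S100a11, an annexin A1 partner, was 37.8-fold higher in Ter119 and 359-fold higher in saline. In Ter119, 5 of 7 members with at least 20 CPM in 1 of the sums were at least 2-fold higher in neutrophil-gated cells, where 10.6% of all 6053 genes were, and in saline 4 of 6 were, where 15.5% of all genes were. S100a1 was at least 2-fold lower in neutrophil-gated cells of both libraries, as were 30.6% of all genes in Ter119 and 38.7% in saline.

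Between treatments the neutrophil members divided. Of 7 members compared, 3 (S100a1, S100a4 and S100a8) exceeded their saline neutrophil level at least 2-fold in Ter119, where 14.8% of all genes did, and 2 (S100a6 and S100a11) were at least 2-fold lower, where 29.8% of all genes were. The median log2 ratio was 0.96 over these members and -0.37 over all 5683 genes compared. S100a8 lay just inside the 2-fold limit at a ratio of 2.01 (1.99 to 2.03), and S100a9 just outside it at 1.94 (1.92 to 1.96). S100a8 fell below 2-fold in Ter119 over saline under 4 of the alternatives, with log2 ratios of 0.84 with at least 2000 UMIs per cell, 0.87 with at least 500 UMIs, 0.92 with at most 5% mitochondrial UMIs and 0.75 with no limit on other markers.

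S100a6 and S100a11 were lower in Ter119 neutrophils. S100a6 had 1161 CPM in Ter119 neutrophils and 6924 CPM in saline neutrophils, a ratio of 0.168 (0.158 to 0.178). S100a11 had 1267 CPM in Ter119 neutrophils and 5969 CPM in saline neutrophils, a ratio of 0.212 (0.200 to 0.225). Both stayed at least 2-fold lower under each of the 11 alternatives fixed for this count. The remaining members were rare in these cells: S100a4 had 44 UMIs in Ter119 neutrophils and 4 in saline neutrophils, S100a1 had 52 and 9, and S100a10 had 18 and 5. The S100a4 ratio of 4.26 (1.55 to 16.3) rested on few cells, since 4 Ter119 cells held 50% of its UMIs, and without the limit on markers of other types its log2 ratio was -0.069.

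**Figure D2:**
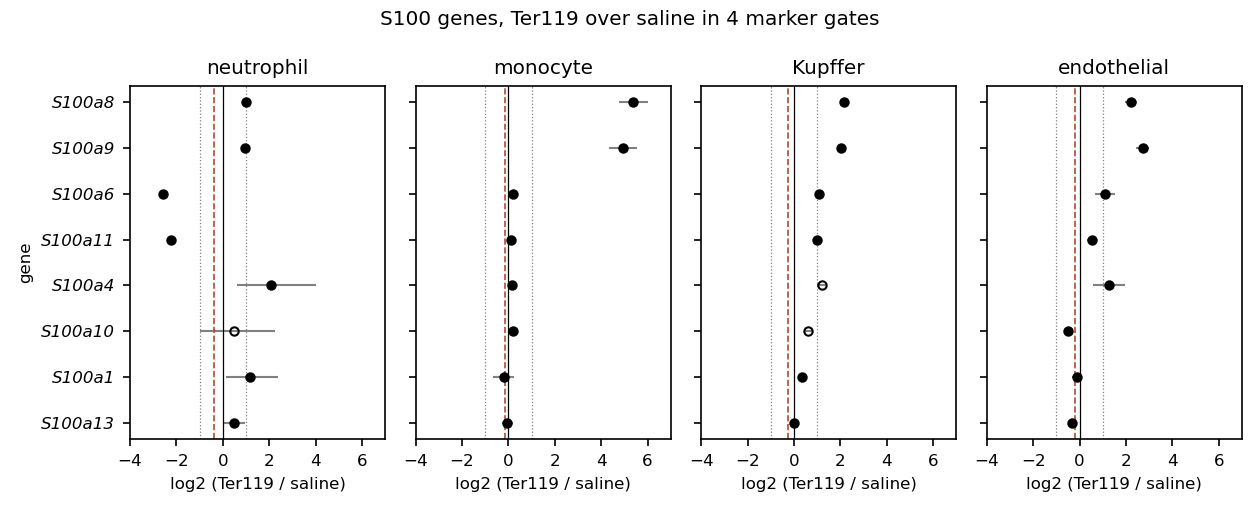
Log2 ratio of Ter119 over saline for each member in 4 gates, with exact 95% intervals for counting error. Filled points have at least 20 CPM in 1 of the sums and open points do not; dotted lines mark 2-fold and the dashed line is the median of all genes compared. In neutrophils S100a8 and S100a9 lie near 1 and S100a6 and S100a11 below -2, while in monocytes all members except S100a8 and S100a9 lie near 0.

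The neutrophils of the 2 libraries were of different kinds, and the members varied along that difference. Camp, Ltf, Ngp and Cd177, which encode or accompany proteins of secondary granules made in bone marrow precursors, reached at least 50 UMIs per 10000 in 527 of 602 Ter119 neutrophils and in 2 of 249 saline neutrophils. Cells under that limit are called late here, numbering 75 in Ter119 and 247 in saline, and 24 Ter119 neutrophils lay between 20 and 100 UMIs per 10000. This split depended on depth, because with a minimum of 500 UMIs per cell there were 527 late cells among 1112 Ter119 neutrophils and 252 among 254 saline neutrophils. The late cells of Ter119 were also shallower, with a median of 1317 UMIs against 2171 in saline. The part of depth in the differences between late cells was not tested.

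S100a8 and S100a9 were highest in secondary granule cells. S100a8 stood at 127779 CPM in secondary granule cells of Ter119, 35454 CPM in late cells of Ter119 and 58568 CPM in late cells of saline. S100a9 stood at 116556, 36280 and 55316 CPM in the same 3 sets. Within Ter119, secondary granule cells exceeded late cells by 3.60-fold for S100a8 (3.50 to 3.71) and by 3.21-fold for S100a9. Of 8 members compared, 2 (S100a8 and S100a9) were at least 2-fold higher in secondary granule cells, where 9.09% of all genes were. Another 3 (S100a4, S100a6 and S100a10, the last with 14 UMIs against 4) were at least 2-fold lower, where 30.8% of all genes were. The log2 ratio of S100a8 ran from 1.37 with at least 500 UMIs to 2.66 with at least 2000 UMIs.

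Compared within late cells, the direction of the pair between treatments was the opposite of that over all neutrophils. The Ter119 over saline ratio was 0.605 (0.587 to 0.624) for S100a8 and 0.656 (0.636 to 0.676) for S100a9, neither of them 2-fold. For S100a8 the log2 ratio in late cells was -0.72 and lay between -1.73, with at least 2000 UMIs and 17 late Ter119 cells, and -0.24, with at least 500 UMIs. The late sets were not alike in stage markers. Late cells of Ter119 held 483 CPM of Cxcr2, a chemokine receptor of mature neutrophils, and those of saline 1615 CPM. Cxcr2, Csf3r, Il1r2 and Mxd1 together summed to 1955 CPM in late Ter119 and 6121 CPM in late saline cells. The secondary granule markers summed to 1130 CPM in late Ter119 and 42.8 CPM in late saline cells. The part of stage in the ratios of the pair was not tested. Of the 8 members, 2 exceeded 2-fold in late Ter119 cells, where 24.5% of all genes did. These were S100a4, with 15 UMIs in Ter119 and 4 in saline, and S100a10, with 4 in Ter119 and 5 in saline.

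S100a6 ran the other way from the pair within Ter119, and S100a11 did so by less than 2-fold. S100a6 stood at 946 CPM in secondary granule cells of Ter119, 3397 CPM in late cells of Ter119 and 6875 CPM in late cells of saline. S100a11 stood at 1188, 2088 and 5989 CPM in those sets. Late cells alone gave Ter119 over saline ratios of 0.494 (0.446 to 0.546) for S100a6 and 0.349 (0.307 to 0.395) for S100a11, so that these were the 2 members at least 2-fold lower, where 19.2% of all genes were. Over the alternatives these log2 ratios ran from -1.95 to -0.51 for S100a6 and from -3.15 to -0.78 for S100a11, the low ends with at least 2000 UMIs per cell and the high ends, under 2-fold for both, with at least 500. Within Ter119 the secondary granule over late ratio was 0.279 (0.250 to 0.311) for S100a6 and 0.569 (0.500 to 0.650) for S100a11. For S100a11 the log2 value of -0.81 became 0.42 with at least 2000 UMIs, where 17 late cells were left.

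**Figure D3:**
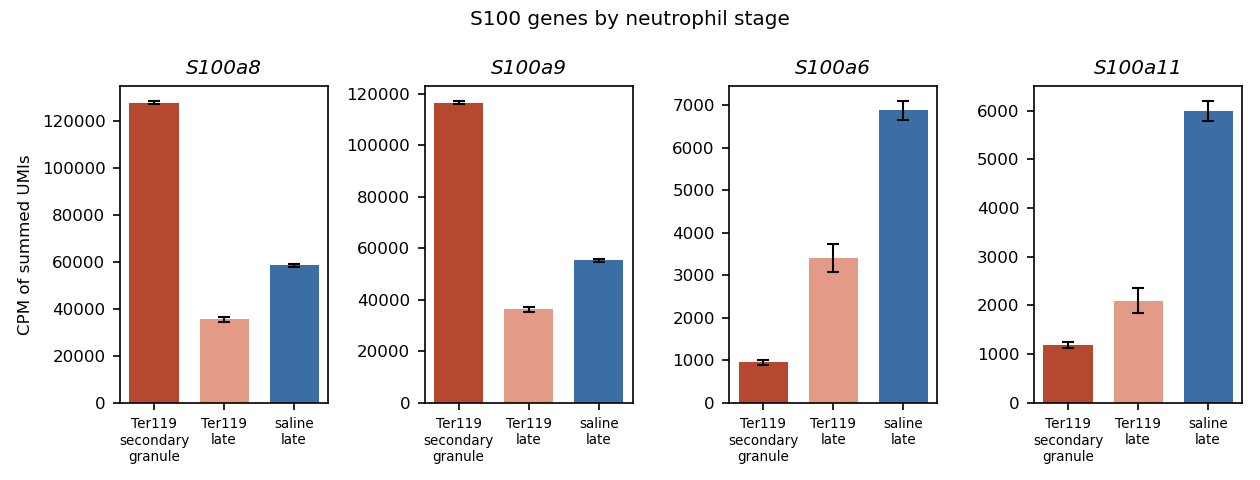
CPM of S100a8, S100a9, S100a6 and S100a11 in secondary granule and late neutrophils of Ter119 and late neutrophils of saline, with exact 95% counting intervals. S100a8 and S100a9 are highest in the secondary granule set, and S100a6 and S100a11 are highest in late saline cells.

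The same order appeared when Ter119 neutrophils were divided more finely. From under 50 through 50 to 500, 500 to 1000 and at least 1000 secondary granule UMIs per 10000, in 75, 95, 339 and 93 cells, S100a8 was 35454, 64538, 140807 and 155700 CPM. S100a6 was 3397, 1301, 1004 and 428 CPM over those ranges. S100a11 was 2088, 909, 1326 and 1091 CPM and showed no steady order, while S100a13 was 93.5, 117, 146 and 150 CPM with intervals that overlapped between neighbours. S100a4 had 15, 16, 13 and 0 UMIs, and the 0 allows up to the 3 UMIs taken as the limit of a zero count. The pair counts in the total that every CPM is divided by. With S100a8, S100a9 and hemoglobin left out of the total, the log2 ratio of Ter119 over saline neutrophils was -2.28 for S100a6 and -1.94 for S100a11.

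In individual cells the pair took a median of 27.2% of UMIs in Ter119 secondary granule neutrophils, with quartiles of 22.1% and 31.7%. The median was 6.00% in late Ter119 neutrophils, with quartiles of 3.44% and 13.5%, and 9.39% in late saline neutrophils, with quartiles of 3.92% and 16.9%. The quartile ranges of the late sets overlapped, and both lay under that of the secondary granule set. S100a6 and S100a11 together had medians of 18.1 UMIs per 10000 in secondary granule Ter119 cells, 58.9 in late Ter119 cells and 118 in late saline cells. Cells of 1 mouse are not replicates, so these spreads describe cells and not animals.

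**Figure D4:**
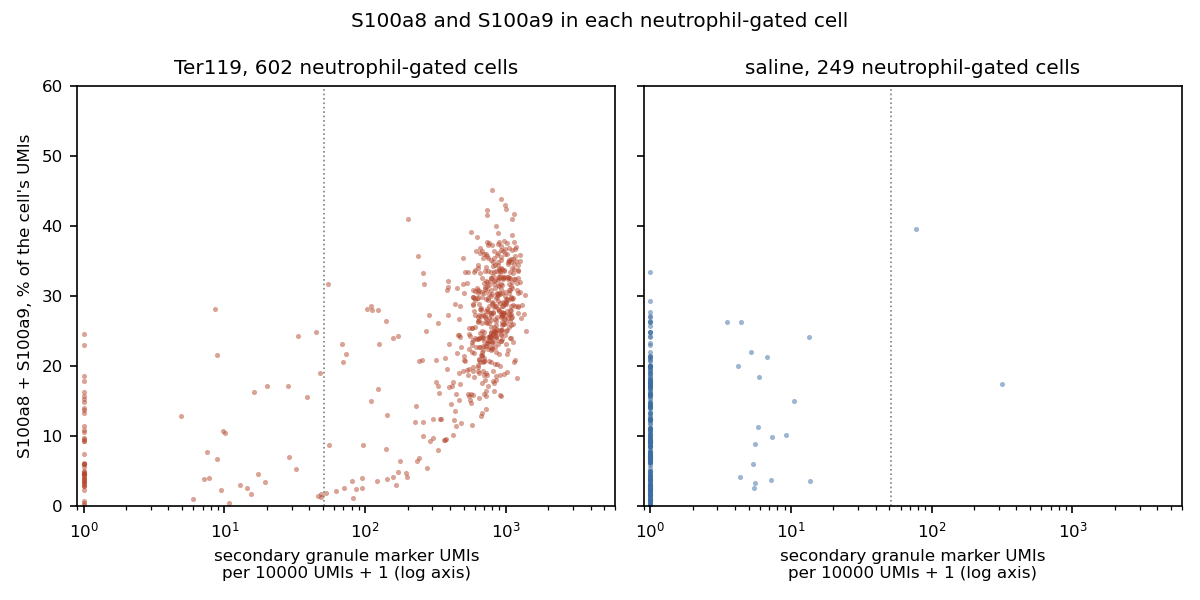
Each point is 1 neutrophil-gated cell, with the UMIs of 4 secondary granule markers per 10000, plus 1, on a log axis and the percentage of its UMIs from S100a8 and S100a9 on the vertical axis. The dotted line is the limit of 50 per 10000 between late and secondary granule cells. Most of the 602 Ter119 cells lie right of the line, and 247 of the 249 saline cells lie left of it.

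Partners of S100 proteins as a list had a median ratio near the background in these neutrophils, while the shares past 2-fold were above it. On a list of 21 partners, receptors and regulators of S100 proteins, 16 were compared, of which 3 exceeded 2-fold in Ter119 neutrophils, where 14.8% of all genes did, and 7 were at least 2-fold lower, where 29.8% were. The median log2 ratio was -0.35 over the list and -0.37 over all genes. Cebpe, which encodes a transcription factor of secondary granule genes, had 403 CPM in Ter119 neutrophils and 14.1 CPM in saline neutrophils, a ratio of 28.6 (14.4 to 66.5). Cebpb, another factor of the family, had 158 CPM in Ter119 and 814 CPM in saline neutrophils, a ratio of 0.194 (0.165 to 0.228). Cybb, the membrane subunit of the phagocyte oxidase to which calprotectin can deliver arachidonic acid, had 2067 CPM in Ter119 and 443 CPM in saline neutrophils. Tlr4 and its co-receptor Ly96, through which released calprotectin signals, had ratios of 0.284 (0.156 to 0.509) and 0.427 (0.270 to 0.676).

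Outside the neutrophil gate S100a8 and S100a9 were low, but higher in Ter119 in 5 of 6 other gates seen in both libraries. S100a8 in Ter119 was 754 CPM in T or NK, 395 in monocyte, 332 in endothelial, 315 in B, 271 in Kupffer and 91.8 in dendritic cells. In saline it was 305 CPM in dendritic, 71.1 in endothelial, 60.3 in Kupffer, 12.7 in B, 9.69 in monocyte and 0 in T or NK cells, the zero allowing up to 19.0 CPM from 3 counts. Within Ter119 the interval of B cells (220 to 439) overlapped those of monocyte, endothelial and Kupffer-gated cells. Within saline those of endothelial and Kupffer-gated cells overlapped, as did those of B, monocyte and T or NK cells. Erythroid cells, gated in Ter119 alone, had 389 CPM of S100a8.

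Some of these sums came from very few cells. In saline 1 dendritic cell held 95.3% of that gate's S100a8 UMIs and 1 endothelial cell 50.9%, and in Ter119 1 B cell held 68.6% and 2 T or NK cells held 50%. In Kupffer-gated cells 145 of 7008 Ter119 cells and 17 of 9436 saline cells held 50% of the S100a8 UMIs. In the monocyte gate 12 of 746 Ter119 cells held 50% of 566 S100a8 UMIs, and saline monocytes had 23 in all. With each cell thinned to 1000 UMIs, 19.7% of Ter119 and 0.604% of saline monocytes held an S100a8 UMI. The neutrophil marker list summed to 153 CPM in Kupffer-gated Ter119 cells and 113 CPM in saline, with all 15 markers detected in both. Across the other gates it summed to between 85.7 and 263 CPM in Ter119 and between 28.0 and 174 CPM in saline, and in the monocyte gate 1 of the 15 markers, Ly6g, was at 0 in Ter119 and 2, Ly6g and Camp, were at 0 in saline. Ly6g was sparse in neutrophils as well, with 40 UMIs in the 247 late saline cells. S100a8 and Retnlg, which only neutrophils among these cells express strongly, stood in a ratio of 13.7 in Kupffer-gated Ter119 cells and 9.61 in saline, beside 73.1 in Ter119 neutrophils, 4.98 in their late cells and 9.10 in saline neutrophils.

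Cells without a UMI of any neutrophil marker were compared as an added check. This kept 4987 of 7008 Ter119 and 5106 of 9436 saline Kupffer-gated cells, and 510 of 746 Ter119 and 143 of 331 saline monocytes. Saline cells of both gates were deeper, and a deeper cell is more likely to hold such a UMI. S100a8 then stood between 79.8 and 171 CPM in the 6 Ter119 gates and between 0 and 19.1 CPM in the 6 saline gates. In Ter119 it was 79.8 CPM in Kupffer, 170 in monocyte, 171 in endothelial, 152 in T or NK, 104 in B and 101 in dendritic cells. In saline it was 19.1 CPM in Kupffer (17.5 to 20.7), 10.1 in monocyte, 12.1 in endothelial (7.75 to 18.0), 0 in T or NK, 15.1 in B and 10.6 in dendritic cells. Kupffer-gated cells had the lowest value of the 6 gates in Ter119 and the highest in saline, but neither rank was clear of counting error. Their Ter119 interval (75.8 to 83.9) lay inside those of B (47.3 to 197) and dendritic cells (52.2 to 177). Their saline interval overlapped those of all other gates. The Ter119 over saline ratio in such Kupffer-gated cells was 4.18 (3.79 to 4.61). In such monocytes it was 16.8 (8.64 to 37.4), with 9 S100a8 UMIs in saline. Free RNA in the droplets was not measured, and its part in these ratios was not tested.

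**Figure D5:**
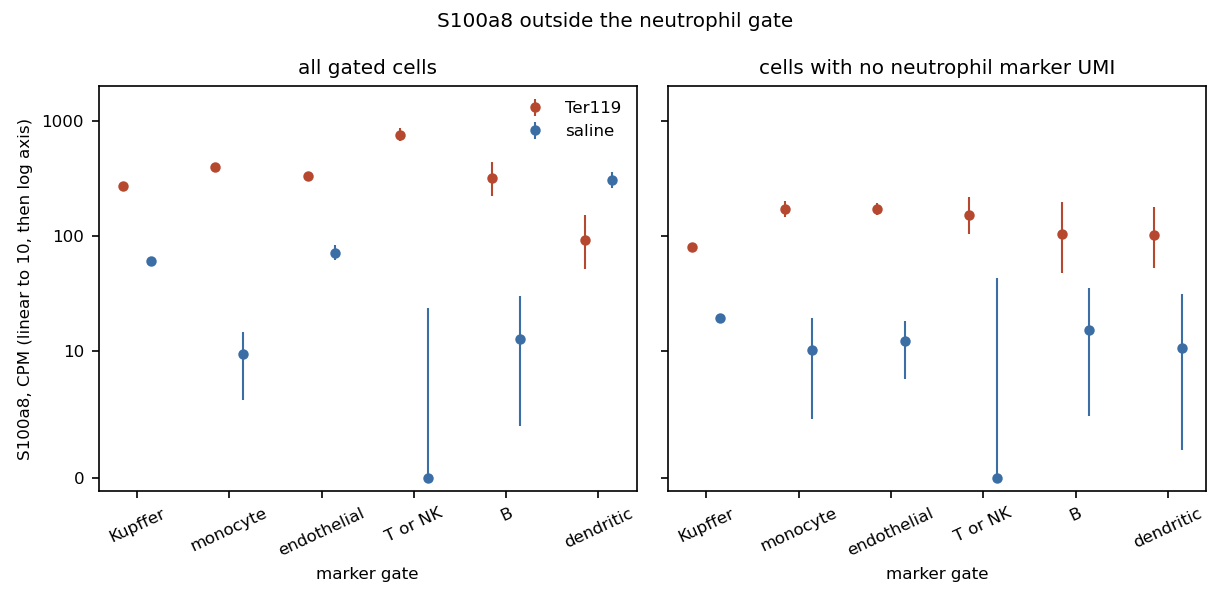
S100a8 in CPM outside the neutrophil gate, for all gated cells (left) and for those without a neutrophil marker UMI (right), with Ter119 left of saline at each gate and exact 95% counting intervals; the axis is linear to 10 and logarithmic above. In the right panel the Ter119 gates lie between 79.8 and 171 CPM and the saline gates between 0 and 19.1 CPM.

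S100a4, which binds nonmuscle myosin and marks motile leukocytes, was highest among the gates in monocytes, T or NK cells and dendritic cells and sparse in neutrophils. Of all its UMIs in kept cells, 31.1% in Ter119 and 45.3% in saline lay in the monocyte gate, and 44.9% in Ter119 and 26.6% in saline lay in cells that passed no gate. It had 1201 CPM in Ter119 monocytes and 1071 CPM in saline monocytes, a ratio of 1.12 (1.05 to 1.19). T or NK cells had 1115 CPM in Ter119 and 1078 CPM in saline, and dendritic cells 618 CPM in Ter119 and 1025 CPM in saline. In the Ter119 library monocytes exceeded neutrophils 39.9-fold (29.6 to 55.2), and in saline 152-fold (59.1 to 557), with 4 UMIs in saline neutrophils. The level in saline neutrophils was 7.06 CPM, close to the 6.44 CPM of saline Kupffer-gated cells.

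S100a6 had 1573 CPM in Ter119 monocytes and 1388 CPM in saline monocytes, and 2125 CPM in Ter119 and 1985 CPM in saline T or NK cells. S100a10, the light chain that pairs with annexin A2 at the membrane, had 257 CPM in Ter119 monocytes and 225 CPM in saline monocytes. It was highest in lymphocytes, with 630 CPM in Ter119 and 786 CPM in saline T or NK cells and 505 CPM in Ter119 and 880 CPM in saline B cells. Of the 8 members, 2 were at least 2-fold higher in monocytes than in neutrophils of Ter119, S100a4 and S100a10, where 26.5% of all genes were, and 3 in saline, these and S100a1, where 32.2% of all genes were. S100a8, S100a9 and S100a11 were at least 2-fold lower in monocytes of both libraries, where 7.69% of all genes were in Ter119 and 15.6% in saline. In saline S100a6 was at least 2-fold lower too, at a ratio of 0.200, beside 1.36 in Ter119; the difference between libraries was not tested.

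Between treatments the monocyte members other than the neutrophil pair differed by less than 2-fold. S100a8 and S100a9 exceeded 2-fold in Ter119 monocytes, 2 of 8 members where 1.80% of all genes did, and 0 were at least 2-fold lower, where 3.30% of all genes were. Of the S100a8 UMIs of Ter119 monocytes, 50% lay in 12 of 746 cells. The 6 members other than the pair had ratios between 0.868 for S100a1 and 1.14 for S100a10, beside a median log2 ratio of -0.13 over all 6160 genes. For S100a11 the ratio was 1.08 with an interval of 0.962 to 1.20. In non-classical monocytes the Ter119 over saline ratio was 1.73 (1.52 to 1.96) for S100a6 and 1.55 (1.36 to 1.76) for S100a4, and in classical monocytes 1.14 for S100a6 and 1.09 for S100a4. The median log2 ratio over the 8 members was 0.51 in non-classical cells, beside -0.15 over all genes.

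Classical monocytes, with more of Ly6c2, Ccr2 and related markers, differed from non-classical ones in S100a10. In Ter119 S100a10 was 357 CPM in classical and 115 CPM in non-classical cells, a ratio of 3.12 (2.39 to 4.12), and in saline 276 and 87.9 CPM, a ratio of 3.14 (2.39 to 4.22). In Ter119 it was the 1 member at least 2-fold higher in classical cells, where 4.10% of all genes were, and S100a9 was the 1 at least 2-fold lower, where 6.84% were. Few cells carried that S100a9 difference, since 6 of 395 classical and 7 of 351 non-classical cells held 50% of its UMIs. In saline S100a6 and S100a10 were at least 2-fold higher, where 5.77% of all genes were, and 0 members were lower, where 8.51% were. S100a6 was 1900 CPM in classical and 1110 CPM in non-classical Ter119 cells, a ratio of 1.71 (1.56 to 1.88), and 1668 and 643 CPM in saline, a ratio of 2.59 (2.34 to 2.88). S100a4 had classical over non-classical ratios of 1.37 in Ter119 and 1.93 in saline.

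S100a1 and S100a13 had another pattern and were highest in endothelial-gated cells. S100a13, which takes part in the release of fibroblast growth factor 1 and interleukin 1 alpha, had 391 CPM in Ter119 and 484 CPM in saline endothelial cells, followed by 260 CPM in Ter119 and 317 CPM in saline T or NK cells. S100a1, best known from muscle, where it acts on ryanodine receptors, had 148 CPM in Ter119 and 159 CPM in saline endothelial cells. Its next level was in Kupffer-gated cells, with 78.8 CPM in Ter119 and 61.3 CPM in saline. Endothelial cells exceeded Kupffer-gated cells 1.87-fold for S100a1 and 4.08-fold for S100a13 in Ter119, and 2.59-fold and 5.02-fold in saline. Over 14 combinations of gate and library, log2 levels of the genes that share the gap correlated with Pearson's r of 0.63, beside 1.00 for S100a8 with S100a9 and 0.88 for S100a6 with S100a11. These points share libraries and depths, and r is given as a description.

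The 1 other S100 gene that reached 20 CPM in a gate of at least 50 cells was S100a16. Its level in endothelial-gated cells was 306 CPM in Ter119 and 466 CPM in saline. S100a10 was 244 CPM in Ter119 and 342 CPM in saline endothelial cells. In Ter119, 3 of 8 members (S100a10, S100a11 and S100a13) exceeded their Kupffer-gated level 2-fold in endothelial cells, where 22.5% of all genes did, and 0 were lower, where 10.3% were. In saline 4 of 7 did, these and S100a1, where 21.2% of all genes did, and 0 were lower, where 13.9% were. Between treatments, S100a8, S100a9, S100a6 and S100a4 exceeded 2-fold in Ter119 endothelial cells, 4 of 8 members where 3.23% of all genes did, and 0 were lower, where 4.63% were. S100a4 had 55 UMIs in Ter119 and 29 in saline, and 1 saline cell held 69.0% of the 29.

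Kupffer-gated cells had low levels of every member. In Ter119 they ran from 14.7 CPM for S100a4 and 16.9 CPM for S100a10 through 33.5 for S100a11, 41.0 for S100a6, 78.8 for S100a1 and 95.8 for S100a13 to 241 for S100a9 and 271 for S100a8. In saline they ran from 6.44 CPM for S100a4 through 11.1 for S100a10, 16.6 for S100a11, 19.2 for S100a6, 59.6 for S100a9, 60.3 for S100a8 and 61.3 for S100a1 to 96.4 for S100a13. A UMI counts 1 captured 3′ end, so length does not enter these levels, although capture can differ between genes. S100a1 and S100a13 were spread over many cells, with a UMI in 24.7% and 29.2% of Ter119 cells and in 32.1% and 45.3% of saline cells. With each cell thinned to 1000 UMIs the shares were 7.35% and 9.20% in Ter119 and 5.84% and 9.56% in saline. As the largest gate, Kupffer-gated cells still held 63.9% of all S100a1 UMIs in kept Ter119 cells and 83.6% in saline. For S100a13 they held 49.7% in Ter119 and 73.4% in saline.

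Monocytes exceeded Kupffer-gated cells in 4 members of each library, S100a4, S100a6, S100a10 and S100a11, by at least 2-fold, as 9.79% of all genes did in Ter119 and 8.95% in saline. The ratio was 81.4 for S100a4 in Ter119 (73.0 to 91.0) and 166 in saline (150 to 184). For S100a6 it was 38.4 in Ter119 and 72.5 in saline, and for S100a10 15.2 in Ter119 and 20.2 in saline. In Ter119 0 members were at least 2-fold lower in monocytes, where 9.34% of all genes were, and in saline S100a8 and S100a9 were, where 13.5% of all genes were.

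Of 6 members compared in Kupffer-gated cells, 4 exceeded their saline level at least 2-fold in Ter119, where 3.35% of all genes did, and 0 were at least 2-fold lower, where 9.70% were. The median log2 ratio was 1.05 over these members and -0.28 over all 6410 genes. S100a8 had a ratio of 4.49 (4.32 to 4.66) and S100a9 of 4.05 (3.89 to 4.21), S100a6 of 2.14 (1.98 to 2.32) and S100a11 of 2.01 (1.84 to 2.20). S100a11 fell just under 2-fold with at least 2000 UMIs per cell (log2 ratio 0.96) and with at most 5% mitochondrial UMIs (0.97), and S100a6 without cells holding a neutrophil marker UMI (0.95). S100a1 had a ratio of 1.28 (1.22 to 1.35) and S100a13 of 0.994 (0.950 to 1.04), and the log2 ratio of S100a13 was -0.01 here and 0.28 with TMM factors.

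The 4 higher members were those at least 2-fold higher in neutrophil-gated than Kupffer-gated cells of both libraries. Of these, S100a6 and S100a11 were also at least 2-fold higher in monocytes than in Kupffer-gated cells of both libraries. S100a4, under the minimum of 20 CPM, had 14.7 CPM in Ter119 and 6.44 CPM in saline Kupffer-gated cells. In Ter119, 131 of 7008 Kupffer-gated cells held 50% of the S100a6 UMIs and 231 held 50% of the S100a11 UMIs. In saline these were 51 and 94 of 9436 cells, and 1 cell held 5.14% of all S100a6 UMIs of that gate. Whether the RNA came from the Kupffer cells or from cells caught with them was not tested. Kupffer-gated Ter119 cells with a UMI of Gpnmb, a lysosomal glycoprotein detected in 4448 of 7008 such cells and in 24 of 9436 saline cells, had levels like those without it. Of 6 members compared there, 0 were at least 2-fold higher, where 0.0534% of all genes were, and 0 lower, where 0% were, and the ratios of all 8 members, with and without the minimum level, lay between 0.868 for S100a9 and 1.20 for S100a10.

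On the partner list, 16 genes were compared in Kupffer-gated cells, of which 2 were at least 2-fold higher in Ter119, where 3.35% of all genes were, and 1 lower, where 9.70% were. The median log2 ratio was -0.25 over the list and -0.28 over all genes. Anxa2, which binds S100a10 and S100a6, had 145 CPM in Ter119 and 44.7 CPM in saline, a ratio of 3.26 (3.11 to 3.41), whereas S100a10 had a ratio of 1.52 (1.35 to 1.71). Ahnak, a giant scaffold held by the annexin A2 and S100A10 complex, had 21.5 CPM in Ter119 and 10.4 CPM in saline. Cebpa, a factor of myeloid differentiation, had 64.6 CPM in Ter119 and 213 CPM in saline. Tlr4 had a ratio of 0.846 and Ly96 one of 0.827, while Ager, the receptor for advanced glycation end products, which also binds S100 proteins, had 0.334 CPM in Ter119 and 1.31 CPM in saline. In monocytes 0 of 17 list genes compared were at least 2-fold higher in Ter119, where 1.80% of all genes were, and 0 lower, where 3.30% were, which is near the background.

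The genes outside the gate markers whose levels followed each member most closely over the 14 combinations of gate and library were picked among 6004 genes. Chil1, a chitinase-like gene of neutrophils, came first for both S100a8 and S100a9 with r of 0.93. Pstpip1 and Coro1a, which encode actin regulators of leukocytes, came first and second for S100a6 with r of 0.95 and 0.94, and Lyst, a lysosome trafficking regulator, first for S100a11 with r of 0.93. Tnip3, Slamf7 and Runx3 led for S100a4, each with r of 0.92. Lima1, an actin-binding gene highest in saline endothelial cells, came first for S100a1 with r of 0.98, while Nol7 led for S100a10 with r of 0.90 and BC030336 for S100a13 with r of 0.93.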

How the data were processed

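Gene expression was measured by droplet single-cell RNA sequencing in 2 samples, 1 Ter119 and 1 saline. For each, the authors deposited a matrix of unnormalized UMI counts, whose header names Cell Ranger 6.0.2. The submitters' processing notes name Cell Ranger 4.0.0, Scanpy 1.7.0, Seurat 3.2.3 and DESeq2 1.26.0, with no role or order. The sources do not say how hashtags separated the mice. The shallowest deposited barcode had 500 UMIs.

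Barcodes with at least 1000 UMIs, 500 genes and at most 15% mitochondrial UMIs were kept. A cell entered a gate with at least 3 of its markers and a summed marker level of at least 100 UMIs per 10000 (Kupffer), 50 (neutrophil, endothelial), 20 (monocyte, T or NK, B), 15 (dendritic) or 4000 (erythroid). Cells in more than 1 gate were left out, and no doublet caller was run. The limits were set after seeing the distributions, and 2529 Ter119 and 337 saline cells lay within 80% to 125% of the Kupffer limit and 618 and 611 within that range of the monocyte limit. Members, markers and the partner list were chosen with earlier results of these data known.

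Counts were summed per gate and library and scaled to CPM. Ratios have exact conditional binomial intervals, levels exact Poisson intervals and shares exact Clopper-Pearson intervals, at 95%. The ratio intervals were checked on simulated Poisson sums. Those sums lack the clustering of UMIs in single cells, so the check does not cover it. A gene was compared where 1 of the sums had at least 20 CPM, and 2-fold was the rule of size. Named genes were the members, other S100 genes at 20 CPM, the partner list and, for each member, the 3 genes of highest Pearson correlation of log2(CPM + 20). Promoter windows were searched on both strands. The software was python 3.11.15 with numpy 2.4.6 for arrays, scipy 1.17.1 for intervals and pandas 2.3.3 for tables. TMM factors came from edgeR 4.0.16 under R 4.3.3. Alternatives changed the scaling, filters, gates, shared barcodes and depth.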

Additional observations from a re-analysis of the deposited data

Results flagged for a closer look

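S100a6 was at least 2-fold higher in Ter119 than saline Kupffer-gated cells and at least 2-fold lower in Ter119 than saline neutrophil-gated cells, and these log2 ratios lay 3.67 apart. For S100a11 the same opposite pair of directions lay 3.25 apart. S100a6 was also at least 2-fold higher in Ter119 endothelial-gated cells, where its log2 ratio lay 3.68 above that of neutrophil-gated cells. These results stand out because the groups' directions were opposite in cells of the same mice, and with 1 mouse per group the difference was not tested. Secondary granule cells were 87.5% of Ter119 and 0.803% of saline neutrophils, and 12 Ter119 and 3 saline endothelial cells held 50% of the S100a6 UMIs of their gate. In the Kupffer gate 131 of 7008 Ter119 and 51 of 9436 saline cells held 50% of the S100a6 UMIs. For S100a11 these were 231 Ter119 and 94 saline cells.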

How the results depend on the processing

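Of the counts of members past 2-fold, 10 were recomputed under 11 alternatives each (higher and lower in Ter119 than saline for Kupffer, neutrophil and monocyte cells, and higher in neutrophil than Kupffer and in monocyte than neutrophil cells of each library), and the 4 Kupffer and monocyte counts between treatments also under 1 more, chosen after seeing the data, which left out cells with a neutrophil marker UMI. Of these 114 values, 113 were within 1.5 times the reported count. The exception among these was the number of members at least 2-fold higher in Ter119 than saline neutrophils, which was 1 in place of 3 with no limit on other markers. The limit of 1.5 times passes a change of 1 member in counts of 3 or more. It therefore does not show single members that crossed 2-fold. S100a8 in neutrophils, and S100a6 and S100a11 in Kupffer-gated cells, did so under some alternatives. Among 72 log2 ratios of single members, 485 values stayed within the counting interval, 281 moved outside it and 2 were labelled reversed. That label left out some changes of sign. S100a4 in Ter119 over saline neutrophils was -0.069 with no limit on other markers. S100a10 in secondary granule over late Ter119 neutrophils was 0.44 without shared barcodes. S100a11 in the latter comparison with at least 2000 UMIs, and S100a13 in Kupffer-gated cells with TMM factors, also changed sign. The cause was not tested. Counts in late neutrophils were not among the 10, and there S100a6 and S100a11, the 2 lower members, both came under 2-fold with at least 500 UMIs (-0.51 and -0.78). Splits of neutrophil stages at 20 and 100 per 10000 were also added after seeing the data and gave S100a8 log2 ratios in late cells of -0.71 and -0.87. Scaling moved the median log2 ratio of all genes in Kupffer-gated cells to 0.04 with TMM and 0.06 with median-of-ratios factors, against -0.28, and in neutrophils to 0.03 and -0.01, against -0.37. No paired analysis was possible because each group has 1 sample. Members under 20 CPM in a gate, and gates of under 100 cells, limit what can be compared.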
